A study of Mus musculus with 2 samples.

Results

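The genes described here are Ret, Gfra1, Gfra2, Gfra3, Gdnf, Slco4c1 and Cxcr4, the RET receptor system and companion genes of the ureteric bud tip. They are the 7 of 32089 genes on the array whose probes carry an accession of one of these symbols, and each has 1 probe. The tissue was the ureter of NMRI wildtype mouse embryos of mixed sex, explanted at E12.5 (E, embryonic day) and kept in culture for 18 h. One group was cultured in medium containing 10 µg/ml NOGGIN, an extracellular antagonist that traps bone morphogenetic protein (BMP) ligands before they can signal, and the other in medium without it. The groups share strain, stage and culture time, and they differ in the NOGGIN alone as far as the labels say. The data are 2 Agilent 2-colour arrays, and each carried 1 RNA sample of NOGGIN-treated ureters and 1 of control ureters, with the dyes exchanged between arrays. On array 1 NOGGIN was green (Alexa Fluor 555) and control red (Alexa Fluor 647), and on array 2 NOGGIN was red and control green. The sample titles name ureter cultures in the plural, so an RNA sample may hold more than 1 culture. Nothing in the labels says how many ureters entered a culture or that the cultures came from separate litters, so the p-values measure the spread between these samples, which may be technical.

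RET is a receptor tyrosine kinase that does not bind its ligands alone. A ligand of the GDNF family first binds a GFRA coreceptor on the cell surface, and the pair then brings RET molecules together, which activates the kinase and the ERK and PI3K pathways. GDNF pairs chiefly with GFRA1, neurturin with GFRA2, artemin with GFRA3 and persephin with GFRA4. In the early kidney the mesenchyme makes GDNF, and the ureteric bud carries RET and GFRA1 at its tips and branches toward the ligand. The same receptors serve enteric, sympathetic and sensory neurons. The distal part of the bud's stalk becomes the ureter, which does not branch.

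Each log2 ratio sets the NOGGIN-labelled channel over the control-labelled one, by the labels' dyes, and is given as mean ± SD (n = 2 arrays). In the authors' deposited table the sign runs the other way. There Id1, a direct target gene of BMP signalling, is at -2.82 on array 1 and -5.67 on array 2 as a signed fold change, while the dyes of the labels give a log2 ratio of 1.98 ± 0.62, and Acta2, the smooth muscle actin gene, is at 2.30 and 2.22 against a log2 ratio of -1.16 ± 0.23. Which of them holds the true direction is not settled by the files, and turning the sign changes each "higher" below to "lower" and the reverse, with the same sizes and p-values. Trapping BMP ligands would lower a direct BMP target, so for Id1 the sign by the dyes runs against that action. The deposited sign, read as NOGGIN over control, runs with it. That is 1 gene, and the direction was not tested. "Higher" and "lower" therefore refer to the NOGGIN-labelled channel.

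Per channel, 67.3% to 74.3% of gene spots were well above background, and 0 spots were saturated. Of 21337 genes tested in limma, 1701 (7.97%) passed an adjusted p of 0.05, 842 higher (3.95%) and 859 lower (4.03%). The median log2 ratio of all tested genes was 0.00083. The ratios of the arrays had a Pearson r of 0.702 across genes, which share their samples and are no replicates of each other. Precision is limited by having 2 arrays. Well above background in both conditions were 11 of 11 epithelium markers and 10 of 10 ureteric mesenchyme markers. So were 8 of 8 endothelial, 17 of 17 neural crest and neuron, 7 of 8 leukocyte and 7 of 8 nephron progenitor markers. Detection alone therefore does not tell these tissues apart.

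In the RET system Gfra3 and Gdnf passed the test, both lower in the NOGGIN-labelled channel. Ret, Gfra1, Gfra2 and Cxcr4 did not pass, and Slco4c1 was not measured above background. That is 2 of 6 tested members, against 7.97% of all genes. A 1.5-fold difference in a shared direction on both arrays was reached by Gfra3 alone, against 2.90% of all genes in either direction, 1.55% for lower ones and 1.35% for higher ones, the share that applies if the sign is turned. The ratio had 1 sign on both arrays for 5 of 6 members, all but Cxcr4, against 66.7% of all genes. Levels are normalised channel intensities on the log2 scale, and they can be compared between channels of a probe but not between probes.

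**Figure D1:**
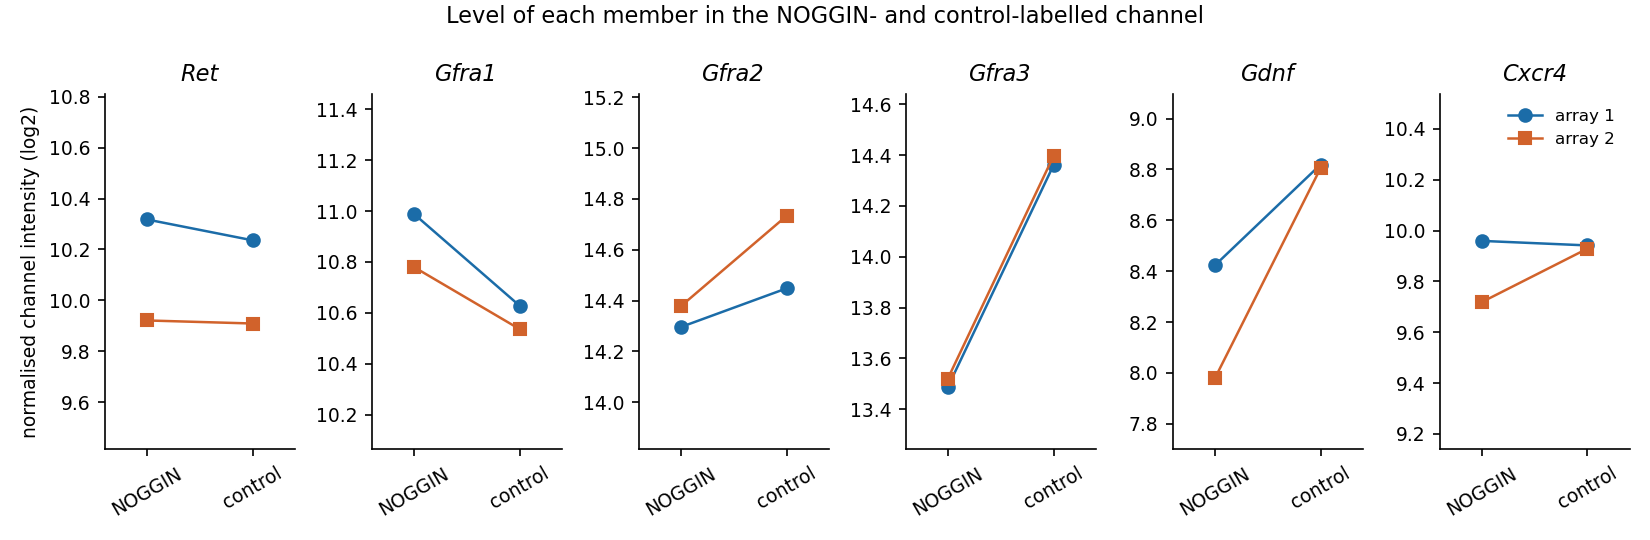
Normalised channel intensity (log2) of each of the 6 measured members in the NOGGIN-labelled channel (left of each panel) and the control-labelled channel (right), with 1 line per array; every panel spans the same number of log2 units, though at a different height. The lines of Gfra3 lie on top of each other at 13.49 and 13.52 in NOGGIN and 14.36 and 14.40 in control, while Ret is nearly flat on both arrays.

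Among the receptors, Ret itself showed the smallest difference of the measured members. Ret encodes the signalling kinase that marks bud tips. Its level was 10.32 on array 1 and 9.92 on array 2 in the NOGGIN-labelled channel, against 10.24 and 9.91 in the control-labelled channel. The groups overlapped, and the arrays differed from each other by more than the conditions did. The log2 ratio was 0.047 ± 0.050, with a 95% interval of -0.14 to 0.23 (limma adjusted p = 0.774). An interval of this width does not show that Ret was unchanged, but its bounds lie closer to 0 than the nearest bound of Gfra3. The authors' deposited table gives Ret opposite signs on the arrays, -1.08 and 1.06.

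Gfra1, the GDNF coreceptor, was the one coreceptor gene with a positive ratio. Its level was 10.99 and 10.78 in the NOGGIN-labelled channel, against 10.63 and 10.54 in the control-labelled channel. Both NOGGIN values lay above both control values, as the levels of the groups also failed to overlap for 51.2% of all genes. The log2 ratio was 0.30 ± 0.082, a 1.23-fold difference, with a 95% interval of 0.11 to 0.50. It did not pass the adjustment over all genes (limma adjusted p = 0.0890), and its ratio was positive on both arrays (0.36 and 0.24).

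Gfra2, the neurturin coreceptor, gave a small negative ratio on both arrays. Its level was 14.30 and 14.38 in the NOGGIN-labelled channel, against 14.45 and 14.73 in the control-labelled channel. The NOGGIN values lay below the control values without overlap, though the groups also failed to overlap for 51.2% of all genes. The log2 ratio was -0.25 ± 0.14, a 1.19-fold difference that did not pass (limma adjusted p = 0.159, 95% interval -0.47 to -0.038).

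Gfra3, the artemin coreceptor known mainly from sympathetic and sensory neurons, had the largest difference of the members and the closest agreement between arrays. Its level was 13.49 and 13.52 in the NOGGIN-labelled channel, against 14.36 and 14.40 in the control-labelled channel. Each condition repeated itself within a few hundredths of a log2 unit, and the groups lay far apart. The log2 ratio was -0.87 on array 1 and -0.88 on array 2, with a mean of -0.87 ± 0.0023, a 1.83-fold lower level (limma adjusted p = 0.00618, 95% interval -1.06 to -0.69). The authors' deposited table holds signed fold changes of 1.77 and 1.82 for it. Among the 21337 genes it ranked 213 from the lowest mean ratio, which becomes 213 from the highest with the sign turned. The SD of 0.0023 is far under the SD between spots on 1 array, 0.045 and 0.030, so it is smaller than the spots can resolve. Limma, which draws each gene's spread toward that of all genes, gave a standard error of 0.072.

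**Figure D2:**
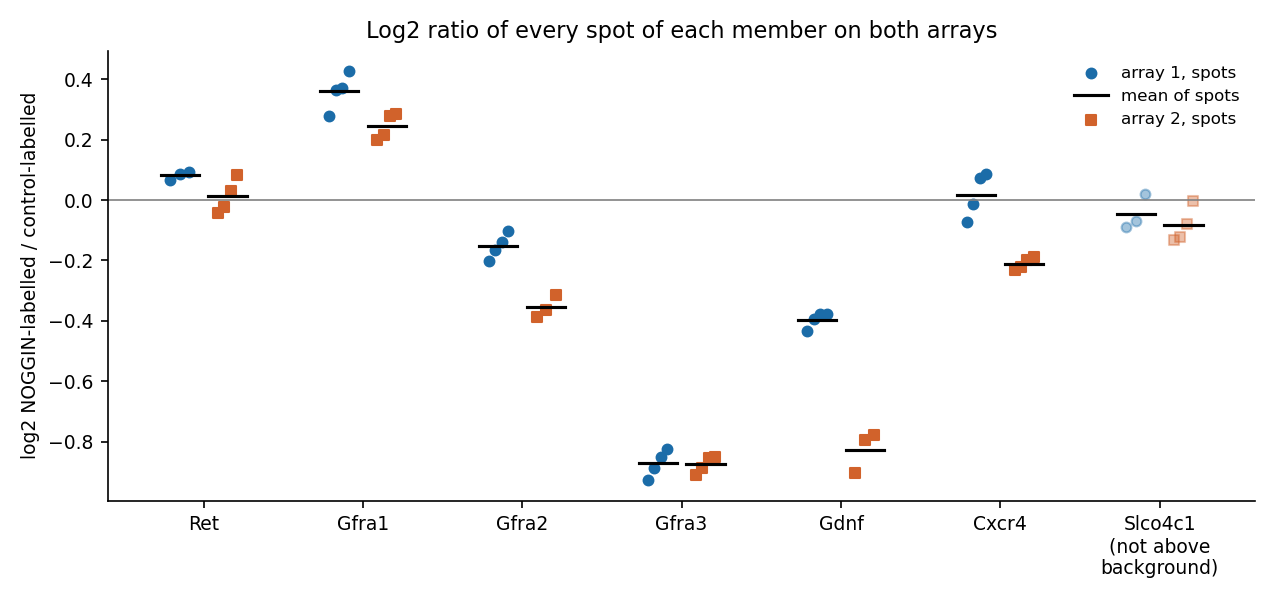
Log2 ratio of NOGGIN-labelled over control-labelled channel for every retained spot of the 7 members, with circles for array 1, squares for array 2 and a bar at the mean of the spots; Slco4c1 is drawn faint because no spot was well above background. The spots of Gfra3 on both arrays lie together between -0.93 and -0.82, while the arrays of Gdnf stand apart.

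Gdnf, the ligand gene, passed narrowly and was lower by an amount that differed between arrays. Its level was 8.42 and 7.98 in the NOGGIN-labelled channel, against 8.82 and 8.80 in the control-labelled channel. The control values were nearly equal and the NOGGIN values were not, though both lay below the controls. The groups failed to overlap for 51.2% of all genes. The log2 ratio was -0.40 on array 1 and -0.83 on array 2, with a mean of -0.61 ± 0.30, a 1.53-fold lower level (limma adjusted p = 0.0463, 95% interval -0.92 to -0.31). The authors' deposited table holds 1.39 and 2.19 for it, again with the array 2 value larger. The 4 retained spots of array 1 lay between -0.43 and -0.38 and the 3 of array 2 between -0.90 and -0.78, so the arrays differed by more than the spots on either. Raw signals were low, at 239.2 in NOGGIN and 570.0 in control on array 1 and at 331.1 and 343.6 on array 2, with red backgrounds of 122.8 and 113.2. The call did not hold where the spot of array 2 flagged as outlying was kept (adjusted p = 0.0529) or with Agilent's processed signals and loess (adjusted p = 0.0703).

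Cxcr4, a chemokine receptor gene that is active in bud tips as well as in endothelial and blood cells, did not pass. Its level was 9.96 and 9.72 in the NOGGIN-labelled channel, against 9.94 and 9.93 in the control-labelled channel, and the groups overlapped. The ratio was 0.018 on array 1 and -0.21 on array 2 and so changed sign between them, with a mean of -0.096 ± 0.16 (limma adjusted p = 0.585, 95% interval -0.32 to 0.13). Markers of endothelium, 0 of 8 past the threshold in limma (3 at an unadjusted p under 0.05), had a median log2 ratio of 0.18. Those of leukocytes, 0 of 7 past it (5 unadjusted) with Fcgr1 not above background, had one of -0.28. Over all 21337 genes, 7.97% passed and 4953 had an unadjusted p under 0.05. The summed level of the leukocyte markers was 15510 and 15010 in the NOGGIN-labelled channel, against 20470 and 14490 in the control-labelled channel, and that of the endothelial markers was 36650 and 43140 against 33280 and 36930. Such sums add probes of different brightness, so bright probes weigh most in them, here and for the other markers. The part of these cells in the Cxcr4 values was not tested.

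Slco4c1, an organic anion transporter gene of the bud tip and later of the kidney tubule, gave no usable level. Of its retained spots 0 were well above background in either condition on either array. Its mean signal on array 1 was 26.4 in NOGGIN and 117.8 in control beside local backgrounds of 23.7 and 122.0, and on array 2 114.2 and 31.5 beside 119.6 and 25. No fold is given for it, and these signals do not show that the transcript was absent.

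**Figure D3:**
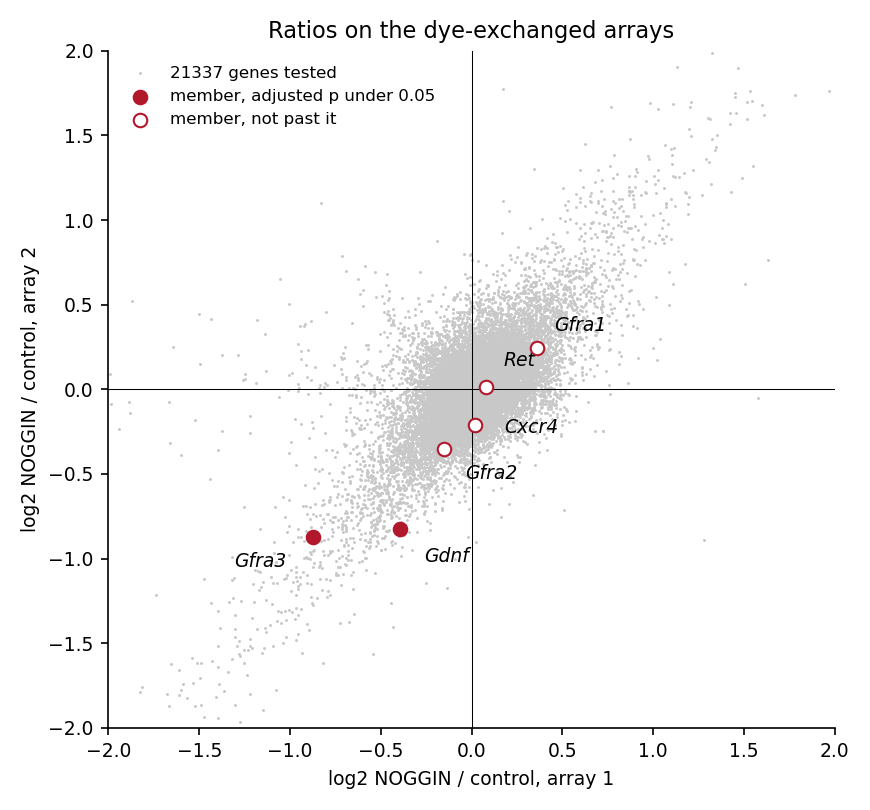
Log2 NOGGIN over control on array 1 (x axis) against array 2 (y axis), with 21337 tested genes in grey (34 lie outside the axes, which end at 2 log2 units) and members in red, filled where they passed an adjusted p of 0.05 in limma. Gfra3 lies on the diagonal at -0.87 and -0.88, Gdnf lies below it at -0.40 and -0.83, and Ret and Cxcr4 sit in the dense centre.

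Within the coreceptor family the ratios ran from -0.87 for Gfra3 through -0.25 for Gfra2 to 0.30 for Gfra1. The 95% interval of Gfra1 lay wholly above those of Gfra2 and Gfra3, and the interval of Gfra3 wholly below that of Gfra2. These ratios are differences between conditions, and no difference between coreceptors was tested as such.

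Among the ligand and receptor genes around the members, the artemin gene passed. Of 9 genes in this list 7 were tested, and 1 was lower, 0 were higher and 6 did not pass (14.3% past the threshold, against 7.97% of all genes), with a median of -0.053. Artn, which encodes artemin, the ligand of GFRA3, had a level of 9.75 and 9.73 in the NOGGIN-labelled channel, against 10.39 and 10.40 in the control-labelled channel. Both conditions were tight and did not overlap, and the groups failed to overlap for 51.2% of all genes. The log2 ratio of Artn was -0.65 ± 0.026, a 1.57-fold lower level (limma adjusted p = 0.0115). Nrtn, the neurturin gene, was at -0.18 ± 0.053 (adjusted p = 0.226) and Gfra4, the persephin coreceptor gene, at -0.062 ± 0.033 (adjusted p = 0.681), with its 3 other probes between -0.071 and 0.024. Gdf15, whose product signals through RET with another coreceptor, was at 0.094 ± 0.12 (adjusted p = 0.560). Ncam1, an alternative GDNF receptor, was at 0.19 ± 0.022 (adjusted p = 0.198), but its 2 dimmer probes gave -0.18 and -0.49, so its direction depends on the probe. Cxcl12, the ligand of CXCR4, was at 0.26 ± 0.0070 and Ackr3, its scavenging receptor, at -0.053 ± 0.16 (adjusted p = 0.108 and 0.786). Pspn and Gfral were not well above background.

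The sequences before the transcription starts of Gdnf and Artn are shown because these are the ligand genes that passed. Each covers the 250 bases before an annotated start of the mouse build GRCm38.p6 in RefSeq, in the direction of the gene, and Gdnf has entries for 2 starts. Capitals mark the SMAD box CAGAC on either strand, which reads GTCTG on the other.
Gdnf, first start, chr15:7809798-7810047, plus strand: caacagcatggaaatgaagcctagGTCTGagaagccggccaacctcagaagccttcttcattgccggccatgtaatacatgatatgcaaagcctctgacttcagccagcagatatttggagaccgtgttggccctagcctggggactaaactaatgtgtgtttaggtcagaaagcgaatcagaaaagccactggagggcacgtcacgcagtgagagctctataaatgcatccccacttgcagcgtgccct
Gdnf, second start, chr15:7813477-7813726, plus strand: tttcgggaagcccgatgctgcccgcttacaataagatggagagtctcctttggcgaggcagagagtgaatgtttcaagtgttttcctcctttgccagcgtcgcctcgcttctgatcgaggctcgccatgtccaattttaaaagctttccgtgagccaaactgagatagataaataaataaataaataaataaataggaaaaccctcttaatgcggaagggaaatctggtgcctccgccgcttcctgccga
Artn, chr4:117929764-117930013, minus strand: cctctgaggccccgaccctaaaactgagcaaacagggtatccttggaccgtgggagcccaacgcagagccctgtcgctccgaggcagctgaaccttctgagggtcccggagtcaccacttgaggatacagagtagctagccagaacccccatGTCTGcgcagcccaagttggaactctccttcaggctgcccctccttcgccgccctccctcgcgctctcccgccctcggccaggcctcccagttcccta

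The box was found 1 time before the first Gdnf start, 0 times before the second and 1 time before the Artn start. It is short and occurs in 42.2% of the 32851 windows of this length. The GC-rich motif GGCGCC and the palindrome GTCTAGAC, which SMADs of the BMP branch and SMADs in general are known to bind, were found 0 times in these windows, against 9.59% and 0.167% of all windows. A match is only a match of letters, and its absence concerns these 250 bases alone. The array probes carry no sequence in the files.

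Genes listed here as targets of RET signalling in bud tips were lower where they passed, apart from Sox9. Whether RET controls each of them in these ureters was not tested. Of 12 tested members 4 were lower, 1 was higher and 7 did not pass (41.7% past the threshold, against 7.97% of all genes), with a list median of -0.22. It was -0.078 on array 1 and -0.26 on array 2. The sprouty genes Spry2 and Spry1 and the ERK phosphatase gene Dusp6, which dampen receptor kinase signalling, were at -0.80 ± 0.17, -0.67 ± 0.19 and -0.67 ± 0.21 (limma adjusted p = 0.0115, 0.0197 and 0.0225). Wnt11, a tip ligand gene in a feedback loop with Gdnf, was at -0.51 ± 0.077 (adjusted p = 0.0231). Its level was 11.13 and 10.94 in the NOGGIN-labelled channel, against 11.59 and 11.50 in the control-labelled channel, without overlap. The groups failed to overlap for 51.2% of all genes.

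The transcription factor genes Etv4 and Etv5, the best known relays of RET in the bud, gave no difference beyond the spread. Etv4 was at -0.13 ± 0.15 and Etv5 at 0.023 ± 0.17 (limma adjusted p = 0.450 and 0.918). Sox9, a factor of tips and of mesenchyme, was the exception in the other direction. Its level was 13.71 and 13.59 in the NOGGIN-labelled channel, against 11.40 and 11.47 in the control-labelled channel, a 4.66-fold higher level (log2 ratio 2.22 ± 0.13, adjusted p = 0.00338). Its companion Sox8 was at -0.11 ± 0.25 (adjusted p = 0.594). The remaining targets did not pass either. Spred2, another ERK inhibitor gene, was at -0.41 ± 0.26, and Myb, a proto-oncogene factor, at -0.29 ± 0.40. Met, the hepatocyte growth factor receptor gene, was at -0.14 ± 0.0060 and Mmp14, a membrane metalloprotease gene, at 0.0084 ± 0.085.

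Other genes of the bud, listed here as other bud tip genes, were lower where they passed. The list includes Wnt9b of the stalk, so it is not confined to the tip. Of 10 tested, 5 were lower, 0 were higher and 5 did not pass (50% past the threshold, against 7.97% of all genes), with a median of -0.39 that was alike on array 1 (-0.38) and array 2 (-0.39). Ros1, an orphan receptor kinase gene of the bud, was at -1.13 ± 0.23 and Adamts18, a secreted protease gene, at -1.03 ± 0.50 (limma adjusted p = 0.00741 and 0.0311). The factor gene Lhx1 was at -0.75 ± 0.19 and Wnt9b, a ligand of the bud stalk, at -0.69 ± 0.27 (adjusted p = 0.0156 and 0.0293). The fifth was the homeobox gene Emx2 at -0.49 ± 0.12 (adjusted p = 0.0311). In limma, under 17 other ways of processing, Adamts18 passed in 12, Emx2 in 14 and Wnt9b in 15, while Ros1 and Lhx1 each passed in 16. Ret thus gave no difference beyond its spread while these genes passed. No test compared Ret with them.

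**Figure D4:**
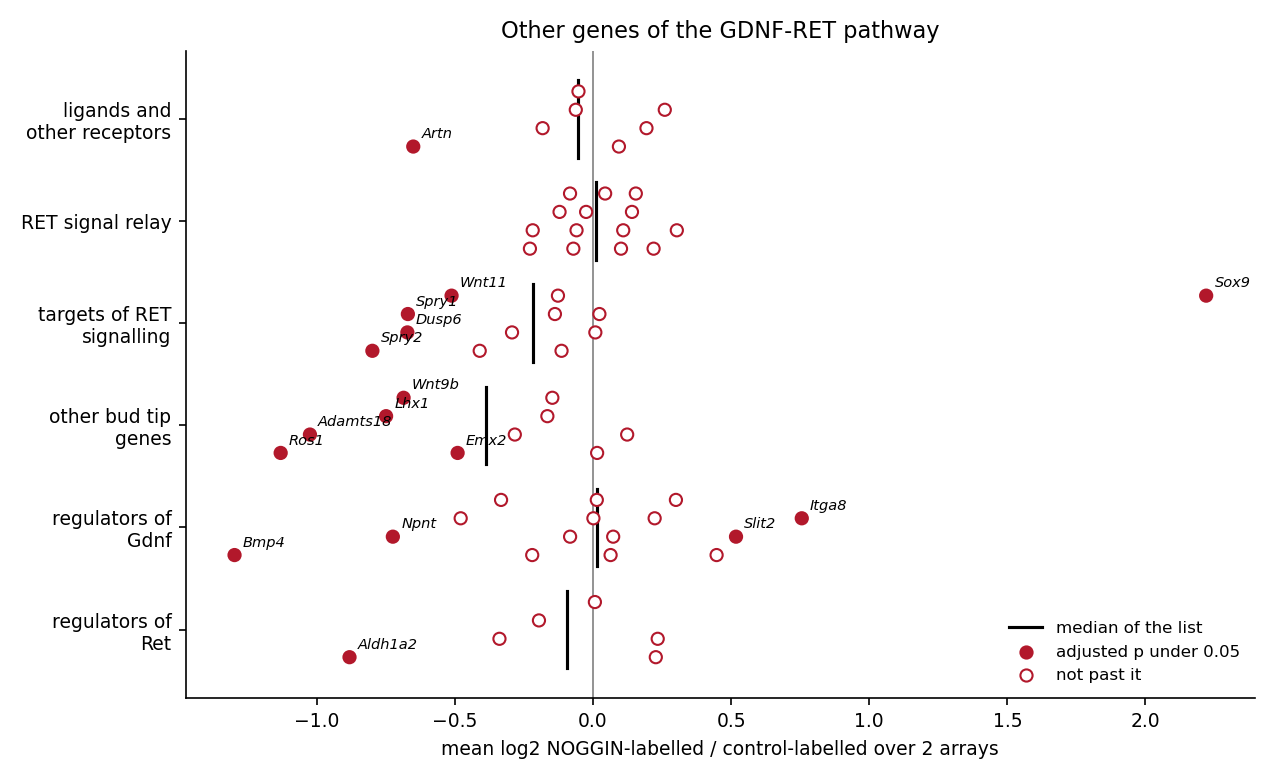
Mean log2 ratio of NOGGIN-labelled over control-labelled channel (x axis) for the tested genes of 6 lists around the GDNF-RET pathway, filled where they passed an adjusted p of 0.05 in limma, with a bar at each list's median. Most genes cluster near 0, and Sox9 stands alone at 2.22. The list of other bud tip genes, which includes Wnt9b of the stalk, has the lowest median at -0.39.

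The genes of the relay proteins, which carry the signal inside the cell, showed no called difference in RNA. Of 14 tested genes of adaptors, kinases and phosphatases 0 passed in limma, against 7.97% of all genes, with a median of 0.0094. At an unadjusted p under 0.05 the count was 4 of 14, against 4953 of all 21337 genes.

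Genes listed as regulators of Gdnf in the kidney mesenchyme passed in both directions. The list also takes in Bmp4, which acts on the response to GDNF, so it is not confined to control of Gdnf itself. Of 15 tested genes 2 were higher, 2 lower and 11 did not pass (26.7% past the threshold, against 7.97% of all genes), with a median of 0.014. Bmp4, which restrains the response to GDNF along the duct, was at -1.30 ± 0.25 (limma adjusted p = 0.00616). Npnt, the gene of the matrix protein nephronectin, was at -0.72 ± 0.20 (adjusted p = 0.0183), with a second probe at -0.31, and did not pass where the channels were fitted separately (adjusted p = 0.194 and 0.110). Itga8, the gene of the nephronectin receptor subunit, was higher at 0.76 ± 0.085 (adjusted p = 0.00944), so the genes of this ligand and receptor ran in opposite directions. Slit2, a guidance ligand gene that limits the Gdnf domain, was higher at 0.52 ± 0.020 (adjusted p = 0.0203). Of 6 tested regulators of Ret in the bud 1 was lower, 0 were higher and 5 did not pass (16.7%), with a median of -0.095. It was Aldh1a2, the mesenchymal retinoic acid synthesis gene, at -0.88 ± 0.31 (adjusted p = 0.0192).

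Some markers of the cells that carry these genes passed as well. Whole ureters were measured, so fewer cells of a type and less RNA per cell cannot be told apart. For the bud epithelium, 0 of 11 tested markers were higher and 2 were lower (18.2% past the threshold, against 7.97% of all genes), with a median of -0.077. They were the tight junction genes Cldn3 at -0.77 ± 0.078 and Cldn4 at -0.55 ± 0.22 (limma adjusted p = 0.00884 and 0.0386). The call of Cldn4 did not hold with Agilent's processed signals (adjusted p = 0.0527 and 0.0559 with median centring and loess), with the mean of all kept probes (0.0533) or with the deposited values (0.0592). The summed level of the 11 was 325600 and 310500 in the NOGGIN-labelled channel, against 309900 and 332600 in the control-labelled channel, so the groups overlapped. For nephron progenitors, kidney cells that make GDNF, 1 of 7 was higher and 1 lower (28.6% past the threshold), with a median of 0.22. Meox1, a homeobox gene, was at -1.74 ± 0.086 and Traf1, a signalling adaptor gene, at 0.94 ± 0.11 (adjusted p = 0.00338 and 0.00645). Their summed level was 40090 and 43180 in the NOGGIN-labelled channel, against 37380 and 34510 in the control-labelled channel, and Eya1 alone made up 42.7% of it.

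For neural crest cells and neurons, which carry RET and GFRA coreceptors outside the kidney, all 17 markers were tested, 3 were higher and 2 lower (29.4% past the threshold, against 7.97% of all genes), with a median of 0.19. The count past the threshold was 2 with processed signals under either normalisation, with channels fitted separately and with the deposited values, and 7 with a trend in the limma prior. The neuronal genes Stmn2, Prph and Nefm were higher at 0.70 ± 0.093, 0.67 ± 0.21 and 0.43 ± 0.087 (limma adjusted p = 0.0114, 0.0223 and 0.0369). Foxd3, a neural crest factor gene, and Dbh, the noradrenaline synthesis gene, were lower at -0.56 ± 0.27 and -0.42 ± 0.11 (adjusted p = 0.0482 and 0.0439). In limma, of 17 other ways of processing, Foxd3 and Dbh each passed in 10, Nefm in 13, Prph in 14 and Stmn2 in 16. The summed level of the neural markers was 178700 and 151000 in the NOGGIN-labelled channel, against 147900 and 144000 in the control-labelled channel. Among ureteric mesenchyme markers 2 of 10 were higher and 1 lower (30% past the threshold), with a median of -0.076. Tbx18 was higher at 1.25 ± 0.27 and Tcf21 at 0.62 ± 0.14, both mesenchymal factor genes, and Col3a1, a collagen gene, was lower at -0.89 ± 0.19 (adjusted p = 0.00702, 0.0189 and 0.0104). The part of these cell types in the values of the members was not tested.

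Of the other genes in these lists, Cldn3, Spry2 and Col3a1 lay closest to Gfra3 by the Euclidean distance between their pairs of array ratios, at 0.168, 0.196 and 0.197 log2 units over 2 arrays. With a pair of values per gene this measure says only that the ratios were of similar size.

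Under 17 other ways of processing, with the sign of the dyes, every member kept the direction of its mean. Gfra3 passed in 16 of 17, with values of -0.95 to -0.84, and Gdnf in 11 of 17, with values of -0.81 to -0.59. Ret, Gfra1, Gfra2 and Cxcr4 passed in 0 of 17, with adjusted p-values of at least 0.753, 0.0753, 0.116 and 0.435 in limma. The mean ratio of Ret lay between 0.011 and 0.061, that of Gfra1 between 0.27 and 0.33, that of Gfra2 between -0.33 and -0.25 and that of Cxcr4 between -0.15 and -0.091.

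**Figure D5:**
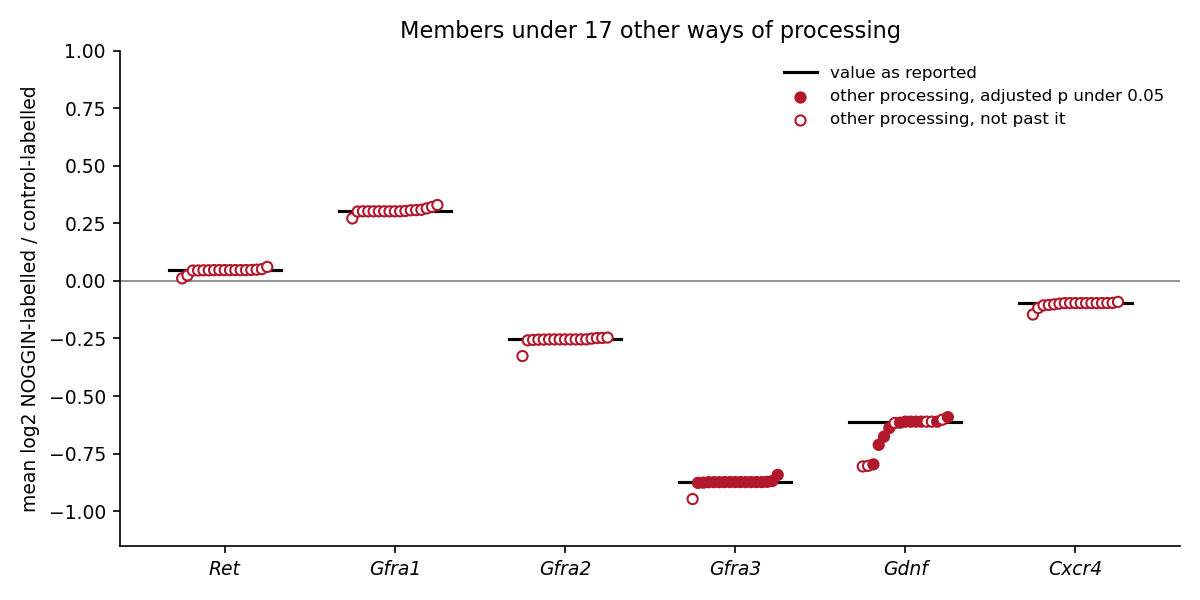
Mean log2 ratio of NOGGIN-labelled over control-labelled channel (y axis) of the 6 measured members under 17 other ways of processing, filled where the adjusted p was under 0.05, with a bar at the value as reported. Gfra3 stays filled in 16 of 17, and Gdnf is open in 6 of 17 and spreads from -0.81 to -0.59.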

How the data were processed

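Gene expression was measured on 2 two-colour arrays. Amplification started from 200 ng of total RNA and ran for 1 round, per the labels' protocols. The authors deposited scanner files with linear spot intensities, made in Agilent Feature Extraction (version 10.7.3.1, per the submitters' processing notes), in which signals of both channels, local background and flags are listed. The log10 ratio per spot in the deposited files was not used. The authors' deposited table holds a signed fold change per probe, and its normalisation and direction are not given in the sources used here. Both columns had a median of 1, and their log2 values correlated at -0.970 and -0.971 with the label-oriented ratios over 19939 bright probes, 1 for each gene, with slopes of -1.13 and -1.14.

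Control, filler and outlier-flagged spots (3.69%) were left out. Background was corrected with normexp (offset 50), each array was normalised with loess (span 0.3), and spots of a probe were averaged. Channel levels were set on a common scale by quantile scaling of average intensities. Probes were named by accession through a RefSeq table of GRCm38.p6, and 28313 of 39408 matched. An accession without a match was counted as a gene of its own, so 15805 of the 21337 tested genes carry a symbol. Probes entered the test where more than 0.5 of the spots exceeded background clearly (the software's flag) on both arrays in at least 1 condition (26712 probes), and the brightest probe stood for its gene. Log2 ratios were tested against 0 in limma 3.58.1 (R 4.3.3), two-sided, with Benjamini-Hochberg adjustment over 21337 genes, with 1 residual and 4.12 prior degrees of freedom. Simulated data for this comparison held 21337 genes, of which 200 were changed. There 56.7% of genes changed 1.5-fold, 100% of those changed 2-fold and 100% of those changed 4-fold passed. The adjustment depends on how many genes change, and 1701 passed in the data, so these shares may differ there.

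The members and lists were chosen with earlier results of these data known, and no list test was run. Some genes of the lists are not reported here. Besides the members, all tested ligand, receptor and RET target genes are named, and up to 4 called genes of each other list with the largest ratios. Emx2 and Dbh were added after their values were seen, to complete lists with 5 called genes. Alternatives covered background, normalisation, filters, spots, probes, the form of the test and the deposited table. The arrays share 1 slide and scan per the file headers. The labels give no batch of culture, RNA or labelling, so such batches were not examined. Of the 7 members 4 have a promoter entry in the sequence table.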

Additional observations from a re-analysis of the deposited data

How the results depend on the processing

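Each of the values here follows from 2 arrays with 1 residual degree of freedom, and signal over background limits Gdnf and Slco4c1 most. With each array centred on its median in place of loess, 0 genes passed in limma (3572 at an unadjusted p under 0.05), so 0 members and 0 genes of the ligand and receptor, RET target and other bud tip lists passed. Gfra3 was then at -0.95 (adjusted p = 0.0901) and Gdnf at -0.62 (adjusted p = 0.194). Only 1 member, Gfra3, passed with processed signals and loess (Gdnf at -0.81), with outlier-flagged spots kept (Gdnf at -0.60), with separate channels and no replicate block (Gdnf at -0.61, adjusted p = 0.0960), with separate channels and the array as replicate block (Gdnf at -0.61, adjusted p = 0.0593) and with the deposited table (Gdnf at -0.80 with its sign turned). The other bud tip genes past the threshold numbered 3 with separate channels and no replicate block and 3 with the deposited table. With the deposited sign the members' log2 means were 0.84 for Gfra3, 0.80 for Gdnf, 0.25 for Gfra2, 0.15 for Cxcr4, -0.011 for Ret and -0.33 for Gfra1. Among the other named genes, signs turned for Etv5 (-0.036) and Mmp14 (-0.061) with median centring, for Mmp14 with the median of spots (-0.020) and the deposited values (-0.035), and for Ncam1 with the mean of its probes (-0.16). Of the 30 other named genes past the threshold, 20 lost their call with median centring alone and 10 with further alternatives (Dbh, Foxd3, Adamts18, Cldn4, Nefm, Emx2, Npnt, Prph, Col3a1 and Wnt9b). The cause of these changes was not tested. Leaving out either array gives a value with no test, which is the other array's ratio in the report. The alternatives for the other named genes and the lists were added after the data were seen.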
